A study of Sus scrofa with 70 samples.

Results

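The vesicular gland (VG) and the prostate gland (PG) of the boar were compared by the RNA-seq expression of their genes. The comparison held the 11 libraries labelled VG or PG that remained after 1 library labelled PG was left out, of 30 RNA-seq libraries and 70 samples in the series. There were 6 VG libraries, 3 from the Banna mini-pig inbred line (BMI) and 3 from Diannan small-ear pigs (DSE), and 5 PG libraries, 2 from BMI and 3 from DSE. The library left out, BMI PG replicate 2, held transcripts of both glands, and PG below means the other 5 unless it is named. All came from adult boars of 12 months with no treatment given in the labels, and BMI is an inbred line derived from DSE. The study also sequenced testis, epididymis and bulbourethral gland (BG), made 1 PacBio Iso-seq library for each breed and gland, and sequenced small RNA, which is not used here. Nothing in the labels says which libraries came from 1 animal, so p-values measure the spread between these libraries only.

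Both glands add fluid to the ejaculate. The vesicular gland grows from the Wolffian duct, the embryonic duct that also forms the epididymis, and in the boar it is known for spermadhesins, small proteins that coat sperm. The prostate buds from the endoderm of the urogenital sinus, and its secretion is known for beta-microseminoprotein, the product of MSMB. HOX genes give cells a position along the body axis, with low paralog numbers toward the head and high numbers toward the tail, and HOXB13 is known as a prostate gene.

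Expression is given as scaled TPM, the deposited TPM (the length-corrected share of a transcript in its library) summed over the transcripts of a gene and divided by a size factor of the library. TPM is already per transcript length, and a difference is a log2 fold change of scaled TPM + 1, VG minus PG, with its standard error (SE). Of 14034 genes tested with limma, 1348 (9.61%) were higher and 1242 (8.85%) were lower in VG, and 2590 (18.5%) were called in either direction. A gene was called where its p, adjusted by Benjamini and Hochberg, was under 0.05 and VG and PG differed by 1 or more on the log2 scale. The 6 VG and 5 PG libraries fitted did not overlap for 2183 called genes (15.6%). The median log2 fold change over all tested genes was -0.02. On TPM as deposited that median was -0.51, and 791 genes were higher and 2844 lower, so that 21.8% of the calls were higher in VG against 52.0% with size factors. Size factors ran from 0.565 to 1.51, and the differences below are relative to the scaled median. In bulk tissue, fewer cells of a type and less RNA per cell cannot be told apart.

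**Figure D1:**
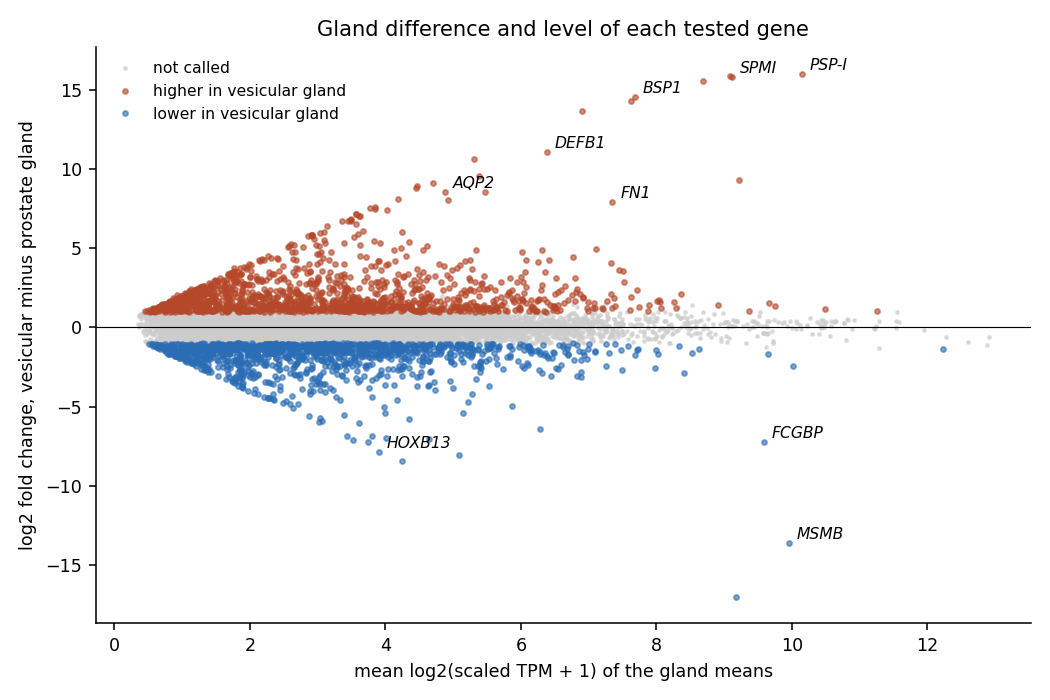
Log2 fold change (VG minus PG) of each tested gene against the mean of its gland means, both from log2(scaled TPM + 1), with called genes in colour. PSP-I at 16.03 and MSMB at -13.60 lie far from the bulk of genes, whose median is -0.02.

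Spermadhesins were among the genes with the highest levels in VG. PSP-I, AWN, AQN-1, PSP-II and SPMI lie together on chromosome 14, and the bases before their transcripts are shown first because windows of these genes resemble each other. Each window holds the 200 bases before the 5′ end of the transcript with the highest mean TPM, read 5′ to 3′ from the RefSeq copy of Sscrofa11.1, the build of the deposited files. Capitals mark the 8 letters CTATATAG, which were searched for after the windows had been read. For PSP-I the window before the Ensembl start is shown, because its most abundant transcript began 184 bases earlier and its own window lacked those letters.
AWN, chr14:132240687-132240886, plus strand: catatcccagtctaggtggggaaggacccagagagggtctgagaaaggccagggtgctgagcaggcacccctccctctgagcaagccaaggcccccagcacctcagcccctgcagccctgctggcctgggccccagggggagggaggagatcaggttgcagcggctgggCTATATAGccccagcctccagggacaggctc
AQN-1, chr14:132258862-132259061, plus strand: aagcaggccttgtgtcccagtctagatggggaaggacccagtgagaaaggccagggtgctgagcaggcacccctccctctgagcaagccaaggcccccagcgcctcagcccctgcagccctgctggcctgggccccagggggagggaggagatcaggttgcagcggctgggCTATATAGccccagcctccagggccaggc
PSP-II, chr14:132274041-132274240, plus strand: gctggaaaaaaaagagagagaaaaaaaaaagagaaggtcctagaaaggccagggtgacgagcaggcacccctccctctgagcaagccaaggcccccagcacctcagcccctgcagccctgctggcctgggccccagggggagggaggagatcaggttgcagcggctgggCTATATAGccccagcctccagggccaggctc
PSP-I at the Ensembl start, chr14:132302152-132302351, plus strand: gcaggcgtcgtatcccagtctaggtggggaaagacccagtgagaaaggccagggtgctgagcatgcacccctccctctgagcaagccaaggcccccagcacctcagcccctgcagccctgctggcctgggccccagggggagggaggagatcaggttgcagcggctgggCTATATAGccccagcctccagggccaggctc
SPMI, chr14:132321593-132321792, minus strand: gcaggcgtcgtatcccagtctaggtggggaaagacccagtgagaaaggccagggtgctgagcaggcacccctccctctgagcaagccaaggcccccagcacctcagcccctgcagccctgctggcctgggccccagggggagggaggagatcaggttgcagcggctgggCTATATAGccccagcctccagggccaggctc
MSMB, chr14:90582766-90582965, minus strand: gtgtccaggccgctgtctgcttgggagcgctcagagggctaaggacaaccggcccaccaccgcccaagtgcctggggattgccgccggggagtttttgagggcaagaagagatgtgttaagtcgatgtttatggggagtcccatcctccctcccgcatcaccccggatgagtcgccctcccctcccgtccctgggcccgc

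The windows of SPMI, AWN, AQN-1 and PSP-II resembled each other, and so did that of PSP-I at the Ensembl start, but not that of its most abundant transcript. SPMI and PSP-I at the Ensembl start shared 99.5% of aligned positions, SPMI and AQN-1 95.05%, SPMI and AWN 91.35%, and SPMI and PSP-II 84.69%. MSMB, the most abundant named gene of PG, shared 50.65% with SPMI, and the window before the most abundant PSP-I transcript shared 53.42% with SPMI, 51.72% with AWN and 48.05% with PSP-II. CTATATAG began at position -31 before the 5′ end in AWN, PSP-II, SPMI and PSP-I at the Ensembl start, and at position -29 in AQN-1. It was found, in either strand, in 14 of 13760 windows of tested genes (0.102%), of which 6 belonged to genes higher and 2 to genes lower in VG. The 6 higher genes were SPMI, AWN, PSP-II, AQN-1 and 2 entries that join spermadhesin genes, and CKMT1A, a mitochondrial creatine kinase, was 1 of the lower genes. The letters TATAAA were in 5.02% of all windows, AGAACA in 6.74%, TGTTTAC in 1.45% and CAATAAA in 2.01%, on either strand, and none of these was in the 6 windows printed. A match describes the sequence and not a binding site.

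PSP-I (chr14:132302352-132308106), a subunit of the spermadhesin heterodimer of boar seminal plasma, was between 173223 and 463336 scaled TPM in VG, with a median of 294530.0. In PG it was at 6.07, 1.004, 3.63, 7.52 and 2.23 (log2 fold change 16.03 ± 0.35, limma adjusted p = 7.27e-12). PSP-II, the other subunit, was between 16872 and 36690.4 in VG with a median of 29321 and at 0.0231, 0.833, 0, 1.92 and 0 in PG. These 5 PG libraries were far below every VG library for both genes, but BMI PG replicate 2, which was left out of the fit, had PSP-I at 171933, near the lowest VG library.

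SPMI (chr14:132315164-132321592), a spermadhesin also named AQN-3, was between 60766 and 255360.0 scaled TPM in VG with a median of 125390.0. In PG its values were 1.22, 0.600, 0.996, 4.21 and 1.16 (log2 fold change 15.79 ± 0.31, limma adjusted p = 3.02e-12). AWN (chr14:132240887-132248033), which binds the zona pellucida of the egg, was between 45246 and 131380.0 in VG with a median of 92412, against 1.36, 0.217, 1.07, 2.37 and 0.248 in PG (15.54 ± 0.31). AQN-1, another zona-binding member, had a VG median of 12984 and at most 0.145 in PG (13.68 ± 0.24). All 5 spermadhesins of this list that were found were higher in VG, and their median log2 fold change was 15.54. The list held 13 symbols, and those not found include other names of the same genes, such as AQN1 and AQN-3. Spermadhesins are known as related copies, and how salmon divided reads between them was not tested, so the level of each is uncertain. An entry that joins AQN-1 and PSP-II in 1 transcript had a VG median of 147592 and at most 2.64 in PG. Spermadhesins took 37.9% to 51.0% of the deposited TPM of a VG library, 45.8% to 62.4% with the joined entries, and at most 0.00198% of a PG library.

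**Figure D2:**
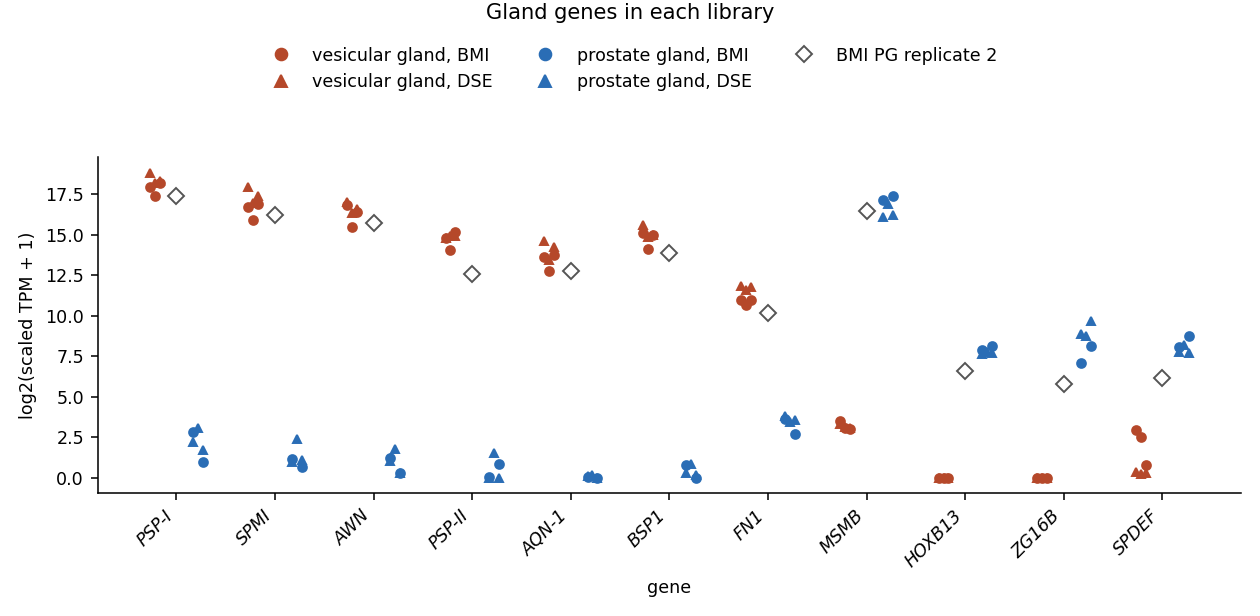
Level of 11 genes in each library as log2(scaled TPM + 1), with VG in red and PG in blue, circles for BMI and triangles for DSE, and an open diamond for BMI PG replicate 2, which was not fitted. No VG symbol overlaps a PG symbol for these genes, and the diamond lies between the gland medians, for SPMI, AWN and AQN-1 within the VG range and for MSMB within the PG range.

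Other genes higher in VG had a range of products. BSP1, a binder of sperm phospholipids, was between 17983 and 49632 scaled TPM in VG and at 0.731, 0, 0.215, 0.803 and 0.108 in PG (log2 fold change 14.56 ± 0.25, limma adjusted p = 1.39e-12). DEFB1, a beta-defensin, had a VG median of 5457 and at most 2.22 in PG. NPPC, the precursor of C-type natriuretic peptide, had a VG median of 1194 and at most 0.859 in PG. RNASE12, a member of the ribonuclease A family, was between 249 and 624.7 in VG and was listed at 0 in all 5 PG libraries. CDO1, which oxidises cysteine on the way to taurine, was between 656 and 1076 in VG and between 0.0916 and 3.74 in PG. FN1, the matrix protein fibronectin, was between 1593 and 3643 in VG and at 11.5, 5.38, 13.1, 9.78 and 10.7 in PG (7.93 ± 0.19, limma adjusted p = 1.38e-11). FN1 stands in a list of fibroblast and matrix genes, of which 2 of 25 tested were higher, near the 9.61% over all genes, and 0 lower, with a median of 0.21. The number lower was 1 without any 1 of BMI PG replicate 3, BMI VG replicates 1 and 2, DSE PG replicates 2 and 3 and DSE VG replicates 1 and 2. The other was POSTN, with 1.21 ± 0.44, which lost its call without any 1 of 8 libraries (0.96 to 1.30).

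The protease inhibitors SPINK13, SPINK14, SPINK2 and SPINK9 were called higher in VG, and SPINK1, SPINK4, SPINK5, SPINK6 and SPINK7 were too low to be tested. SPINK2, on chromosome 8, was between 3.45 and 45.5 scaled TPM in VG and at most 2.14 in PG (log2 fold change 3.08 ± 0.34), and the other 3 lie on chromosome 2. SPINK13 was between 479.8 and 910.4 scaled TPM in VG and at most 0.547 in PG. SPINK14 had a VG median of 50.9 and at most 0.0557 in PG. ENSSSCG00000029257 (chr2:149556794-149570136), which overlaps the RefSeq gene of the acrosin inhibitor, had a VG median of 14687 and values of 35.8, 15.8, 17.3, 34.6 and 18.6 in PG (log2 fold change 9.32 ± 0.29). It was picked after its values were seen. Of 24 protease inhibitors tested, 9 were higher and 3 lower, against 9.61% and 8.85% over all genes, with a median of 0.54. Those lower were SERPINA1, the inhibitor of neutrophil elastase, at -2.68 ± 0.25, SERPINB1 at -1.91 ± 0.14 and the cysteine protease inhibitor CST3 at -1.70 ± 0.18. SPINK9 was called higher at 2.54 ± 0.85 although the glands overlapped, and it was not called when BMI PG replicate 2 was included, nor without any 1 of BMI VG replicate 1, DSE VG replicates 1 and 3 or the 3 DSE PG libraries, where it ran from 1.95 to 2.50.

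MSMB was the most abundant named gene of PG. It was at 146316, 171386, 68080.0, 122849 and 74481 scaled TPM in PG and between 6.90 and 10.3 in VG (log2 fold change -13.60 ± 0.22, limma adjusted p = 1.39e-12). MSMB took 10.3% to 17.8% of the deposited TPM of a PG library. The highest gene of PG had no symbol. ENSSSCG00000037112 (chr3:39344126-39347008), which overlaps a RefSeq gene described as like ZG16B, was at 282122, 215457, 168850.0, 196360.0 and 207377 in PG and at most 1.16 in VG (-17.02 ± 0.20). It was named after its values were seen. ZG16B, a secreted lectin whose gene lies beside it, was at 132, 283, 474, 427 and 819 in PG and was listed at 0 in all 6 VG libraries.

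Genes of the serine proteases PRSS33, PRSS22 and PRSS27 lie on both sides of that pair, between 39302369 and 39399970 on chromosome 3, and were lower in VG as well. PRSS22 was at 62.8, 74.0, 59.2, 49.1 and 61.0 scaled TPM in PG and between 19.0 and 23.97 in VG (log2 fold change -1.51 ± 0.12). The glands overlapped for PRSS33 (-2.0 ± 0.63) and PRSS27 (-1.78 ± 0.39). With Ensembl transcripts alone PRSS22 (-0.33) and PRSS27 (-0.95) were not called, and PRSS33 was not called without BMI PG replicate 1 (-1.62) or without BMI PG replicate 3 (-1.68). HPN, the membrane protease hepsin, was at -1.43 ± 0.19. Of 9 kallikreins and serine proteases tested, of 27 listed, 0 were higher (1 without DSE PG replicate 1 or without DSE PG replicate 3) and 4 lower, with a median of -0.55. Of 8 prostate secretory proteins tested, of 26 listed, 3 were lower and 1 higher. The lower ones were MSMB, ZG16B and AGR2, a protein disulfide isomerase, at -2.42 ± 0.55. The glands overlapped for AGR2, with BMI PG replicate 3 at 40.2 and VG up to 121, and its difference was -1.03 in BMI and -3.54 in DSE, a breed difference that did not pass (limma adjusted p = 0.139). TMPRSS2, a membrane protease known from the human prostate, was between 193 and 246 in VG and at 58.4, 80.0, 40.3, 41.4 and 48.1 in PG (2.03 ± 0.15). ACP3, prostatic acid phosphatase, was at 0.32 ± 0.21 and did not pass the test, with a direction that reversed on TPM as deposited.

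Genes of mucus and of O-glycans were mostly lower in VG among those called. FCGBP, a large mucus protein that binds the constant part of IgG, was at 9060.2, 8704, 12216, 8362 and 9898 scaled TPM in PG and between 24.9 and 134 in VG (log2 fold change -7.23 ± 0.38). ST6GALNAC1 and ST6GALNAC2, which add sialic acid to O-glycans, were at -4.47 ± 0.33 and -3.36 ± 0.20. Of 27 tested genes of mucins, trefoil factors and O-glycosylation, 11 were lower and 5 higher, with a median of -0.67. Those higher included GCNT1, which branches O-glycans, with a VG median of 106 against 1.84 in PG (4.997 ± 0.45). MUC15, a membrane mucin, was at 3.66 ± 0.26.

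The other genes with the strongest differences toward PG follow. ELAPOR1, a protein of the secretory pathway, was at 139, 137, 152, 226 and 171 scaled TPM in PG and at most 0.348 in VG (log2 fold change -7.20 ± 0.13). MLPH, which links secretory vesicles to myosin, was at -6.97 ± 0.24. CLDN10, a claudin of ion-permeable tight junctions, was at -6.85 ± 0.17. SLC5A8, a sodium-coupled transporter of lactate, was at 80.0, 118, 104, 168 and 119.9 in PG and at most 0.0378 in VG. CKMT1A was between 109.6 and 169 in PG and was listed at 0 in all 6 VG libraries. PLEKHB1 was at -6.02 ± 0.13.

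HOX genes divided by paralog group. Of 17 genes of groups 1 to 8 that passed the filter, of 23 listed, 16 were higher and 0 lower in VG, with a median log2 fold change of 2.05. HOXB5 was the member not called, at 0.91 ± 0.15. Of 10 genes of groups 9 to 13, of 16 listed, 8 were lower and 2 higher, with a median of -2.73. Values for all HOX genes of the first list lay above 0, and those of the second on both sides.

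HOXB2 was between 50.9 and 106 scaled TPM in VG and at 4.81, 5.62, 6.62, 5.35 and 4.20 in PG (log2 fold change 3.35 ± 0.17, limma adjusted p = 2.48e-08). HOXB8 had a VG median of 88.1 and values of 10.2, 13.99, 5.08, 4.02 and 6.63 in PG (3.28 ± 0.16). HOXD3 (3.11 ± 0.31) and HOXD1 (2.92 ± 0.34) were at most 0.546 in PG. None of the 5 PG libraries fitted reached the lowest VG library for these 4 genes, whereas BMI PG replicate 2 was above it for HOXB8 (58.6 against 54.1), HOXD3 (6.70 against 2.21) and HOXD1 (6.58 against 1.69).

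HOXB13 (chr12:24947687-24950714) was at 237, 276, 195, 216 and 208 scaled TPM in PG and was listed at 0 in all 6 VG libraries (limma adjusted p = 2.63e-13). Its fitted difference depends on the pseudocount, as do those of other genes near 0 in VG or PG, such as AQN-1, PAX2, SLC9A3 and GPX6. HOXD13 was at 42.7, 43.3, 39.4, 42.5 and 45.2 in PG and between 2.75 and 5.67 in VG (log2 fold change -3.20 ± 0.16). HOXD11 was at -3.91 ± 0.21, HOXD12 at -3.25 ± 0.19, HOXA9 at -3.01 ± 0.17, HOXA10 at -2.44 ± 0.22, HOXA13 at -2.32 ± 0.21 and HOXA11 at -1.63 ± 0.25. HOXD9 (1.49 ± 0.24) and HOXB9 (1.33 ± 0.17) had the opposite direction from HOXA9 in the same paralog group, and neither was called on TPM as deposited. The switch lay at group 9, where the HOXA member was lower and the HOXB and HOXD members higher. Overlapping and antisense genes in these clusters cannot be told apart where counting did not use strand.

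**Figure D3:**
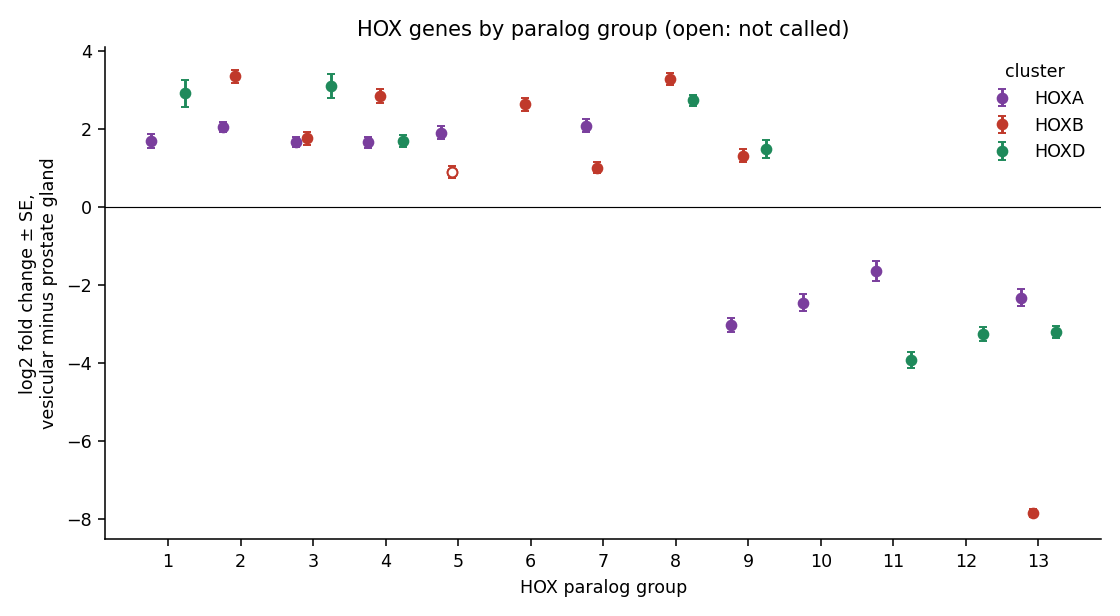
Log2 fold change (VG minus PG) of each tested HOX gene with its SE, by paralog group and cluster, with an open symbol for HOXB5, which was not called. Groups 1 to 8 lie above 0, and groups 10 to 13 below, from -1.63 for HOXA11 to -7.83 for HOXB13, which depends on the pseudocount.

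Transcription factors of the Wolffian duct were higher in VG for 7 of 14 genes tested and lower for 2, with a median log2 fold change of 1.65. PAX2, needed for the Wolffian duct, was between 36.9 and 112 scaled TPM in VG and at 0.0250, 0, 0, 0.00639 and 0.0374 in PG (5.99 ± 0.19, limma adjusted p = 3.18e-10). EMX2, a homeobox gene of the urogenital system, was between 42.6 and 61.4 in VG and at 0, 0, 0.0523, 0.0397 and 0.516 in PG. LHX1 was between 6.60 and 13.6 in VG and was listed at 0 in all 5 PG libraries. GATA3 was at 2.98 ± 0.18. SIX2 (-2.07 ± 0.17) and TFCP2L1 (-1.70 ± 0.21) were the members lower in VG.

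Transcription factors listed for the urogenital sinus and prostate were lower in VG for 14 of 26 genes tested and higher for 4, with a median of -1.17. SPDEF, a factor of secretory epithelium, was at 264, 432, 219, 293 and 205 scaled TPM in PG and between 0.182 and 6.76 in VG (log2 fold change -7.03 ± 0.37). PITX1 was at -5.90 ± 0.31 and CREB3L4, an androgen-regulated gene in the human prostate, at -5.39 ± 0.17. The members higher in VG were BARX2 (5.90 ± 0.22), ELF5 (4.75 ± 0.21), GATA2 (3.14 ± 0.19) and TBX3 (1.65 ± 0.17). ELF5, a factor of milk-producing epithelium, was between 249 and 416 in VG and between 4.64 and 21.0 in PG.

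Among genes of androgen action, SRD5A1 and SRD5A2, which make dihydrotestosterone, were at log2 fold changes of 0.07 ± 0.30 and 0.35 ± 0.37, did not pass the test, and both reversed on TPM as deposited. Of 18 tested genes of androgen and steroid action, 2 were higher and 2 lower, near the 9.61% and 8.85% over all genes. HSD17B6, which acts on androstanediols, was at 81.1, 66.6, 78.5, 31.5 and 66.6 scaled TPM in PG and between 1.32 and 3.87 in VG (-4.39 ± 0.21). HSD17B11 was at 2.44 ± 0.16, HSD3B1 at 2.24 ± 0.25 and HSD11B2 at -2.05 ± 0.37.

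Ligands, receptors and inhibitors of morphogen pathways were higher in VG for 4 of 42 genes tested and lower for 8, near the 9.61% over all genes for the higher ones, with a median of 0.03. The number higher was 8 without DSE PG replicate 3, without DSE VG replicate 3 or with a pseudocount of 0.1. AREG, a ligand of the EGF receptor, was between 13.3 and 33.9 scaled TPM in VG and at most 0.198 in PG (log2 fold change 4.28 ± 0.17). WNT9B, a signal of the Wolffian duct, was at 1.71 ± 0.17 and WNT10A at 1.39 ± 0.17. FGFR3, a receptor of fibroblast growth factors, was at 103, 150.3, 79.9, 122 and 91.2 in PG and between 17.4 and 47.4 in VG (-1.87 ± 0.26), but was at -0.37 and not called with Ensembl transcripts alone. BMP7 was at -1.79 ± 0.50, with DSE PG replicate 2 at 0.516 and the other PG libraries between 12.2 and 23.9.

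Genes of ion and water transport were called in both directions, 10 of 39 tested higher and 9 lower in VG. AQP2, the water channel that vasopressin moves to the membrane in kidney, was between 304 and 2347 scaled TPM in VG and at 0.314, 0.667, 0.401, 0.441 and 0.666 in PG (log2 fold change 8.56 ± 0.41, limma adjusted p = 1.36e-08). AVPR2, the receptor of vasopressin, named after its values were seen, was between 108 and 232 in VG and at 5.59, 6.65, 1.65, 2.13 and 1.54 in PG (5.14 ± 0.29). SLC26A3, an exchanger of chloride for bicarbonate, was between 106 and 214 in VG and was listed at 0 in all 5 PG libraries, and the calcium channel TRPV6, between 23.0 and 72.4 in VG, was listed at 0 there too. SLC9A3, a sodium-proton exchanger, had a VG median of 153 and at most 0.272 in PG (7.04 ± 0.32).

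In PG the transport genes were others. SLC12A2, which loads chloride into secreting cells, was at 259, 222, 145, 386 and 190.2 scaled TPM in PG and between 2.51 and 6.83 in VG (log2 fold change -5.42 ± 0.25). The carbonic anhydrases CA2 and CA12 were at -3.95 ± 0.31 and -3.32 ± 0.41.

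**Figure D4:**
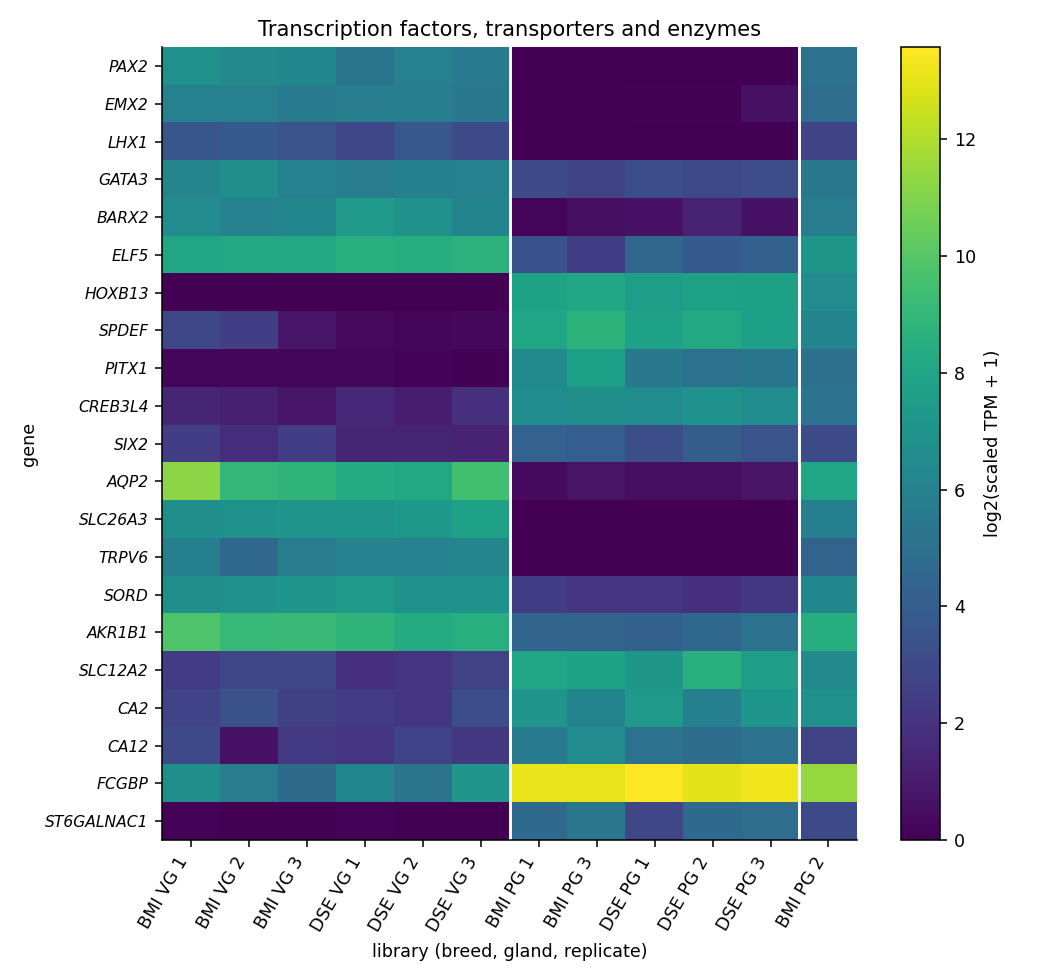
Level of 21 transcription factors, transporters, enzymes and mucus genes as log2(scaled TPM + 1) in each library, with 6 VG, 5 PG and the library BMI PG replicate 2 apart at the right. PAX2 is between 36.9 and 112 in VG and at most 0.0374 in PG, SPDEF between 205 and 432 in PG and at most 6.76 in VG, and BMI PG replicate 2 is at 33.8 and 68.8.

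Among genes of polyol and metal metabolism, SORD, which turns sorbitol into fructose, was between 109 and 154 scaled TPM in VG and at 4.78, 3.06, 3.07, 2.53 and 3.55 in PG (log2 fold change 4.88 ± 0.14). AKR1B1, which makes sorbitol from glucose, was between 331 and 902 in VG and between 17.5 and 34.2 in PG (4.42 ± 0.24). SLC5A3, a carrier of inositol, was at 4.27 ± 0.25 and SLC2A8, a carrier of glucose, at 2.47 ± 0.24. Of 19 genes of polyol, fructose and inositol metabolism tested, 4 were higher, against 9.61% over all genes. The 2 lower were near the 8.85% over all genes, and the median was 0.12. SLC30A2, which moves zinc into vesicles, was between 374 and 612 in VG and at 0.457, 0.427, 0.911, 2.51 and 0.765 in PG (8.02 ± 0.21). ODC1, the first enzyme of polyamine synthesis, was at 2.17 ± 0.18, AZIN1, which sustains it, at 2.34 ± 0.17 and ANKH, which exports citrate and pyrophosphate, at 2.23 ± 0.23. MT3, a metallothionein, was at 102, 149, 62.1, 46.3 and 96.6 in PG and at most 5.55 in VG (-4.996 ± 0.24), and SLC39A8, which imports zinc, was at -2.48 ± 0.32. CS, citrate synthase, was at -1.10 ± 0.15, and at -0.87 and not called with Ensembl transcripts alone. Of 30 genes of citrate, zinc and polyamine metabolism tested, 7 were higher and 4 lower, with a median of 0.10. The shares over all genes were 9.61% and 8.85%.

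Antioxidant and prostaglandin enzymes were higher in VG for 8 of 40 genes tested, against 9.61% over all genes. They were lower for 4, near the 8.85% over all genes, with a median of -0.16. GPX6, a glutathione peroxidase, was between 67.5 and 543 scaled TPM in VG and at most 0.192 in PG (log2 fold change 7.47 ± 0.40). GPX5 was at 2.92 ± 0.27. ENSSSCG00000002623, which overlaps a RefSeq transcript named glutathione S-transferase alpha but typed there as non-coding, and which was picked after its values were seen, had a VG median of 1475 and was listed at 0 in the 5 PG libraries fitted. GSTA1 was between 1.01 and 78.2 in VG and was listed at 0 there too, while BMI PG replicate 2 had 716 and 4.62. GGT1, which breaks down glutathione, was at -2.82 ± 0.16, HPGD, which inactivates prostaglandins, at -2.32 ± 0.40 and SOD2 at -1.89 ± 0.20.

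Of 66 genes of the secretory pathway and the unfolded protein response, 7 were higher and 4 lower, near the 9.61% and 8.85% over all genes, with a median of 0.15. On TPM as deposited 1 was higher and 11 were lower. XBP1, a factor of the unfolded protein response, was at -0.30 ± 0.13 and HSPA5, a chaperone of the endoplasmic reticulum, at 0.54 ± 0.20, and neither was called. DERL3 was at 1.70 ± 0.25, and at -0.15 with Ensembl transcripts alone. SSR4 was between 587 and 2613 scaled TPM in VG and between 425 and 521 in PG (log2 fold change 1.56 ± 0.28).

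The scaling also moved counts of lower genes in other lists. On TPM as deposited, 14 of 39 genes of ion and water transport, 11 of 40 antioxidant and prostaglandin enzymes, 8 of 30 genes of citrate, zinc and polyamine metabolism, 7 of 24 protease inhibitors and 5 of 18 genes of androgen and steroid action were lower.

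**Figure D5:**
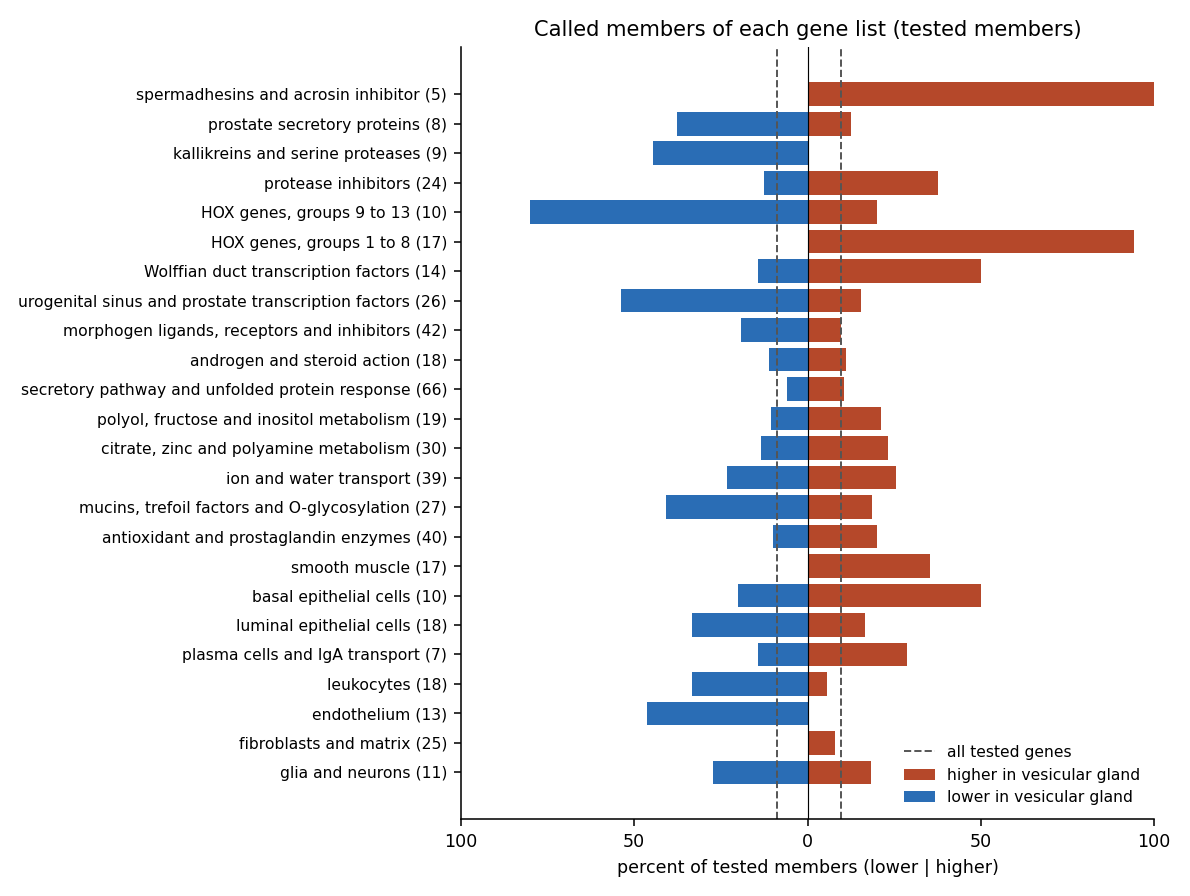
Percent of the tested members of each list called higher (right) or lower (left) in VG, for lists with at least 5 tested members (number in brackets), with dashed lines at the shares over all tested genes, 9.61% higher and 8.85% lower. HOX groups 1 to 8 lie right of the line at 16 of 17, and HOX groups 9 to 13 left at 8 of 10.

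Some markers of other cell types that the pieces of tissue could hold differed between the glands. Smooth muscle markers were called higher for 6 of 17 genes and lower for 0, and summed to between 1182 and 6063 scaled TPM in VG and between 350.3 and 3963 in PG. The glands overlapped for ACTG2 (log2 fold change 2.08 ± 0.78), DES (1.73 ± 0.52), MYL9 (1.61 ± 0.49) and CNN1 (1.54 ± 0.54), and with BMI PG replicate 2 included or on TPM as deposited 0 of 17 were called. The number higher was 0 with no breed term, and 1 with replicate numbers as blocks or with no level filter. Leaving out 1 library moved the number higher to 0 without BMI PG replicate 3, to 2 without BMI PG replicate 1 or BMI VG replicate 2, to 3 without BMI VG replicate 3, DSE PG replicate 2 or DSE VG replicate 1, and to 12 without DSE VG replicate 3. ACTG2 also lost its call without any 1 of 8 of the 11 libraries, where it ran from 1.46 to 2.23. The log2 fold change of ACTG2 was 3.84 in BMI and 0.68 in DSE, and this breed difference did not pass (limma adjusted p = 0.200). MYH11 (1.48 ± 0.59) and ACTA2 (1.32 ± 0.55) did not pass the test, but both were called without DSE VG replicate 3, ACTA2 at 1.68. Endothelial markers were lower for 6 of 13 and higher for 0, or for 1 without DSE VG replicate 1. PECAM1 was at 46.8, 69.5, 40.3, 46.6 and 37.0 in PG and between 9.15 and 17.7 in VG (-1.70 ± 0.20). The sum of the endothelial markers was between 139 and 283 in VG and between 205 and 417 in PG. Leukocyte markers were lower for 6 of 18 and higher for 1, CD68 (2.34 ± 0.27), and summed to between 66.0 and 256 in VG and between 164 and 379 in PG. The sums of all 3 lists overlapped between the glands. On TPM as deposited 14 of 18 leukocyte markers were lower. The part of these cells in the gland differences was not tested.

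Among epithelial markers, KRT5, a keratin of basal cells, was between 23.7 and 70.8 scaled TPM in VG and at 1.80, 1.38, 3.35, 0.132 and 1.34 in PG (log2 fold change 3.99 ± 0.34), and TP63, the basal cell factor, was at 1.89 ± 0.17, whereas ITGB4 was at -2.80 ± 0.14, and at -0.85 and not called with Ensembl transcripts alone. Basal markers were higher for 5 of 10 and lower for 2, or for 1 without any 1 of BMI PG replicates 1 and 3 and BMI VG replicates 2 and 3 and with BMI PG replicate 2 included. Luminal markers were higher for 3 of 18 and lower for 6, with CDH1 at 1.73 ± 0.11, CD24 at -4.93 ± 0.43 and KRT18 at -1.91 ± 0.25, while KRT8 (-0.03 ± 0.16) and KRT19 (-0.32 ± 0.21) did not pass. UPK3A and UPK2, plaque proteins of urothelium, were at 4.75 ± 0.19 and 4.47 ± 0.44, and urothelial markers were higher for 2 of 4 and lower for 1. Of 7 markers of plasma cells and IgA transport 2 were higher and 1 lower, of 11 of glia and neurons 2 were higher and 3 lower (5 without BMI PG replicate 3 and 1 with all glands in one fit), and of 3 skeletal muscle markers 0 were called, or 1 higher without BMI VG replicate 1, DSE PG replicate 3 or DSE VG replicate 3.

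BMI PG replicate 2 held transcripts of both glands. For the 12 genes named as highest in VG by fold change, it lay at 21.0% to 59.6% of the VG median, and for the 12 named as lowest, at 12.7% to 73.1% of the PG median. It lay between the gland medians for 91.2% of the genes higher and 93.2% of the genes lower in VG. Its spermadhesins took 30.8% of the deposited TPM. With it in the fit, 1129 genes were higher and 1084 lower, and of the genes called without it 1125 and 1077 were among them. The spermadhesins, HOXB13 and MSMB kept their call.

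The Iso-seq reads gave a second look in DSE. The DSE VG library had 7211 full-length reads of PSP-I, 2944 of SPMI and 2631 of AWN, and the DSE PG library had 0 of each. For HOXB13 the DSE PG library had 218 reads and the DSE VG library 0, and for ELAPOR1 they had 542 and 0. For MSMB they had 123 and 1, fewer in DSE PG than for HOXB13 or ELAPOR1 although its scaled TPM was far higher. Read numbers thus did not rank these genes as RNA-seq did. Of 476 genes higher in VG with at least 20 reads in the pair, 442 had the larger share of reads in DSE VG, and of 408 lower genes 402 had more in DSE PG. Of 4241 genes not called, 1661 had more in DSE VG and 2580 in DSE PG. With 1 library for each gland, this was no test. The library labelled BMI PG held 10777 reads (4.09%) of the 12 highest VG genes and 120 (0.0456%) of the 12 lowest, close to BMI VG with 9561 and 26, so it went against its label and was not used.

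VG had the highest level of the 5 glands for most genes higher in VG than in PG. In medians scaled over the 30 libraries, VG was the highest of the 5 glands for 882 of the 1348 genes higher in VG (65.4%), testis for 219 (16.2%) and epididymis for 210 (15.6%). Among genes not called VG was highest for 16.1%, testis for 36.4%, epididymis for 20.03%, BG for 15.5% and PG for 12.1%. The call itself sets the order of VG and PG, so the shares are a description. PG was highest for 654 of the 1242 genes lower in VG (52.7%) and BG for 301 (24.2%). RNASE12 was at 751 in epididymis and 698 in VG. SPDEF was at 572 in BG and 344 in PG.

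The gland difference was also compared between the breeds. A test of the difference of the gland effect between DSE and BMI passed for 189 of 14034 genes (1.35%) in limma, and for 52 with BMI PG replicate 2 included. Without 1 library in turn it passed for 32 to 421 genes. The count was 421 without BMI VG replicate 1, 351 without DSE VG replicate 2, 73 without BMI VG replicate 3 and 67 without BMI VG replicate 2. It was 59 without DSE PG replicate 1, 58 without DSE VG replicate 1 or without DSE VG replicate 3, 50 without DSE PG replicate 3 and 32 without BMI PG replicate 3. For the spermadhesins the gland difference was 15.93 in BMI and 16.10 in DSE for PSP-I, and 15.59 and 15.95 for SPMI.

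The most abundant genes took a larger part of VG libraries on average. The 10 highest genes took 62.1% ± 6.29 (SD, n = 6) of deposited TPM in VG and 50.2% ± 5.69 (SD, n = 5) in PG, a difference of 11.9 percentage points (exact permutation test, two-sided, p = 0.0130, with 0.00433 the smallest possible). This test had no breed term. In DSE the shares were 67.6%, 62.5% and 65.6% in VG and 42.4%, 51.4% and 46.6% in PG. In BMI they were 63.2%, 49.9% and 64.2% in VG and 54.4% and 56.2% in PG, where the glands overlapped. The single highest gene took 24.1% ± 2.04 in VG and 26.6% ± 3.76 in PG, which did not pass (exact permutation p = 0.214).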

How the data were processed

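The series holds RNA-seq, Iso-seq and small RNA libraries of boar glands, and the RNA-seq and Iso-seq tables were used. The authors made the deposited TPM values with salmon (Salmon 1.9.0 in the submitters' processing notes) on an annotation that merged Ensembl and Iso-seq transcripts of Sscrofa11.1, and the deposited Iso-seq table holds full-length read counts per transcript. The study's methods describe capture with poly-T beads and the labels describe depletion of ribosomal RNA, which bears on RNA without a poly-A tail. TPM keeps no depth. The read totals per library that the study's supplement lists were not used here, so no counting error is given, and values are shares of a library in which a few genes take a large part. For that reason TPM were summed to genes and divided by median-of-ratios size factors over 9817 genes with at least 1 TPM in all VG and PG libraries. Of 35552 genes, 14034 with at least 1 scaled TPM in at least 3 libraries were tested on log2(scaled TPM + 1) with limma 3.58.1 in R 4.3.3 (gland and breed as terms, mean-variance trend, Benjamini-Hochberg adjustment). The test was tried first on simulated data. BMI PG replicate 2 was left out because it holds vesicular gland transcripts, and the tests were repeated with it. Samples were grouped by their labels. The text names the 12 genes with a symbol and the largest difference in each direction whose libraries did not overlap, the 5 markers, up to 4 called genes per list and direction, and list members that were not called. Some genes that this rule names are not reported here. The members and lists were chosen with earlier results of these data known. RefSeq gave names and windows on the same build. Iso-seq counts had 1 library per breed and gland and are a description only. The alternatives were other scalings, pseudocounts, filters, terms and transcript sets and leaving out each library. Small RNA data were not used here.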

Additional observations from a re-analysis of the deposited data

Results flagged for a closer look

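The gland difference of 6 named genes itself differed between the breeds in limma (adjusted p below 0.05). As the difference in DSE minus that in BMI, on the log2 scale, it was -3.653 for BMP3, a bone morphogenetic protein, 3.014 for ERN2, a sensor of unfolded proteins in mucous cells, -2.033 for SLC39A8, -2.554 for GPX6, 1.586 for LAMA3, a laminin chain, and 2.419 for PROM1. BMP3 was at 0.568 and 0.105 scaled TPM in the BMI PG libraries and at 14.5, 19.1 and 16.3 in those of DSE. ERN2 was at 40.6 and 10.51 in BMI PG and at 0.525, 1.08 and 0.470 in DSE PG. PROM1 was at 28.5 and 21.4 in BMI PG and at 2.83, 9.39 and 6.05 in DSE PG. GPX6 was at most 0.192 in PG of both breeds, and its breed difference lay in VG. There it was at 543, 441 and 437 in BMI and at 74.6, 119 and 67.5 in DSE. All 6 fits had only 2 BMI PG libraries.

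In 28 of 326 groups of a named gene and a gland (8.59%), 1 library stood far from the others by Dixon's criterion. For normally spread values chance gives this in about 1 of 20. The shares cannot be compared, because groups listed at 0 in every library count among the 326 and could not be flagged. Some flagged values also lie near 0. For SPINK14, SPINK9, BMP3, GPX6 and GPX5 the other libraries of the gland were listed at 0. DSE PG replicate 2 was high in scaled TPM for SPMI (4.21), SPINK13 (0.5468), SLC9A3 (0.2722) and GPX6 (0.1921) and low for BMP7 (0.5164) and HSD17B6 (31.51). BMI VG replicate 1 was high for the epithelial genes UPK3A (65.18) and COL17A1 (15.94) and low for the smooth muscle gene ACTG2 (34.6). BMI VG replicate 2 was low for PSP-II (16870.0), RNASE12 (249.2) and TRPV6 (23.01) and high for HOXB2 (106.1). BMI PG replicate 1 was high for SPINK14 (0.05574), B3GNT7 (0.3909) and L1CAM (9.32) and low for ODC1 (19.68). DSE PG replicate 1 was high for SPINK9 (0.257), GPX5 (0.05604) and SCG2 (0.1805) and low for SERPINA1 (21.02). BMI PG replicate 3 was high for HOXD3 (0.5459) and GCNT1 (7.808), and DSE PG replicate 3 for EMX2 (0.5157). DSE VG replicate 1 was high for PRSS33 (9.171) and low for GALNT7 (12.88), DSE VG replicate 2 was high for BMP3 (0.1875), and DSE VG replicate 3 for ELAPOR1 (0.3475).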

How the results depend on the processing

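Of 3689 values of 163 named genes under the alternatives, 3571 kept their direction and side of the threshold, 96 lost the call, 9 gained it and 13 reversed, and 0 called genes turned direction between calls in any setting. On TPM as deposited, 791 genes were higher and 2844 lower in VG. With at least 5 scaled TPM in at least 5 libraries, where fewer genes were tested, the counts were 898 and 788, and with Ensembl transcripts only 837 and 776. Without each library in turn they ran from 1310 to 1366 higher and from 1194 to 1302 lower. Values that reversed belonged to genes not called, apart from DERL3. On TPM as deposited they were -0.16 for ACP3, -0.47 for SRD5A1, -0.043 for SRD5A2 and -0.054 for HSPA5, and with Ensembl transcripts only -0.15 for DERL3. KRT8 was at 0.0049 with BMI PG replicate 2 included, at 0.0438 with the replicate block and from -0.11 to 0.044 without 1 library in turn, and SRD5A1 from -0.16 to 0.29. The number of genes whose gland difference differed between breeds, 189, was 52 with BMI PG replicate 2 included, 580 on TPM as deposited and 32 to 421 without 1 library. The share of the highest gene alone differed by -2.45 percentage points (exact permutation p = 0.214). The cause of these changes was not tested, apart from the smaller number of genes tested.

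The check of whether replicate numbers pair the samples was not decisive. In DSE the deviations of same-numbered libraries correlated at 0.228, 0.0626 and 0.0743, not all above the 0.1 set for pairing, and DSE VG replicate 3 correlated best with DSE PG replicate 2. In BMI the 2 PG libraries deviate as mirror images, so pairing could not be judged, and the libraries were treated as unpaired. With the replicate block 1362 genes were higher and 1244 lower. Adding joined entries to their genes, chosen after seeing the data, gave 1382 and 1258. TPM hold no depth, and the precision of low values was not computed.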
